A study of Rattus norvegicus with 93 samples.

Results

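The blood of the bone marrow runs through sinusoids, wide vessels whose lining cells take up waste molecules and let new blood cells pass into the circulation. The genes described here are 10 markers of that lining and of blood vessel endothelium at large, listed by name. Of the 10, 3 are scavenger or hyaluronan receptors typical of sinusoidal cells: Lyve1 (a hyaluronan receptor), Stab1 and Stab2 (stabilins, which clear hyaluronan and other spent molecules). The other 7 are not confined to sinusoids and are grouped here as pan-endothelial, though not every type of vessel carries each of them. They are Kdr (the main VEGF receptor), Tek (the angiopoietin receptor), Tie1 (its co-receptor), Emcn (endomucin, a surface sialomucin), Plvap (the protein of fenestral and caveolar diaphragms), Pecam1 (a junction adhesion molecule) and Vwf (von Willebrand factor, which tethers platelets). Each gene was read from probe sets annotated to that single symbol, and where a gene had several the probe set of highest mean over all arrays stood for it, which mattered for Lyve1 alone. All 10 were measured, of 7810 genes in all.

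VEGF signals through Kdr to keep endothelial cells alive and growing, and angiopoietins signal through Tek to hold the vessel wall quiet. Cytotoxic drugs and irradiation are known to widen and disrupt marrow sinusoids, and recovery of blood formation is known to need VEGF receptor and Tek signalling. Several of the markers are shared with other marrow cells: Stab1 and Lyve1 are also made by some macrophages, Vwf by megakaryocytes, and Pecam1 by megakaryocytes, platelets and several white cells.

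The samples were femoral marrow of male Sprague-Dawley rats, 8 weeks of age, an outbred strain with no engineered allele, each fitted with a femoral vein cannula. Every rat received 2 intravenous infusions of 30 minutes each, 30 minutes apart, and the group name gives them in order: topotecan (4.7 mg/kg, a topoisomerase I inhibitor) was given in saline (0.9% NaCl), oxaliplatin (15 mg/kg, a platinum compound that crosslinks DNA) in D5W (dextrose in water), and in each single-agent group the other infusion was the other drug's vehicle. The 8 treatments were therefore 2 vehicle pairs (NaCl/D5W, and D5W/NaCl), topotecan alone as topotecan/D5W or D5W/topotecan, oxaliplatin alone as NaCl/oxaliplatin or oxaliplatin/NaCl, and the combination as topotecan/oxaliplatin or in the reverse order, oxaliplatin/topotecan, and marrow was taken 1, 6 or 24 h after dosing ended. Each of the 24 groups held 4 rats, save oxaliplatin/NaCl at 6 h and, among those killed at 24 h, topotecan/D5W and the D5W/NaCl vehicle, which held 3, or 93 arrays in all. A change below is a log2 difference against the vehicle group of the same time and infusion scheme, NaCl/D5W for topotecan/D5W, NaCl/oxaliplatin and topotecan/oxaliplatin, and D5W/NaCl for the rest, with the standard error (SE) of the limma fit. A gene is called higher or lower where limma's Benjamini-Hochberg adjusted p over all 12532 probe sets is below 0.01, with no minimum fold, and groups that share a vehicle share its error.

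The deposited values are log2 signals, and over whole arrays the medians ran from 8.79 to 9.30. Over the vehicle rats at 24 h the mean level of the 10 genes lay between 8.44 and 8.56, and all 10 genes passed the authors' filter. The marrow was bulk tissue, so more endothelial cells, more of a transcript per endothelial cell and fewer cells of other kinds cannot be told apart. Skeletal muscle genes stood out on 3 arrays, topotecan/oxaliplatin 6 h animal 52 and oxaliplatin/NaCl 24 h animals 41 and 42, with mean levels over 11 such genes of 10.11, 9.26 and 9.16 against 6.24 on the median array. The sample codes of the labels also carry a number that is odd in the vehicle, topotecan/D5W and oxaliplatin/NaCl groups and even in the other 4 treatments at 1 and 6 h. What that number stands for is not given. In those 4 treatments its effect and that of treatment cannot be told apart at 1 and 6 h. At those times topotecan/D5W and oxaliplatin/NaCl have odd numbers like their vehicles. At 24 h the number is even throughout D5W/topotecan and oxaliplatin/topotecan and odd throughout their D5W/NaCl vehicle. Its effect and that of treatment cannot be told apart there either. NaCl/oxaliplatin is also even throughout at 24 h, where its NaCl/D5W vehicle rats are odd save animal 11. In topotecan/oxaliplatin at 24 h odd and even numbers are mixed, and topotecan/D5W and oxaliplatin/NaCl are odd. Lyve1 and Emcn are among the genes that the study itself singled out from these rats, so their changes here are not independent evidence.

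RefSeq promoter sequences (GRCr8) were found for 7 of the 10 genes and not for Pecam1, Tek and Vwf. The 4 printed are those of the genes the results turn on most: Kdr, lower at 1 h in 5 treatments, Lyve1, higher from 6 h, and Stab1 and Emcn, higher at 24 h. Each line gives the 250 bases before the transcript start, read 5′ to 3′ on the gene's own strand, with capitals marking CCGGAA or AGGAAG on either strand, letters that hold the GGAA core bound by ETS factors, a family that drives many endothelial genes. The Kdr window lies at chr14:32571813-32572062 on the plus strand, the Lyve1 window at chr1:174410978-174411227 on the minus strand, the Stab1 window at chr16:6367360-6367609 on the minus strand and the Emcn window at chr2:228564289-228564538 on the plus strand.
Kdr: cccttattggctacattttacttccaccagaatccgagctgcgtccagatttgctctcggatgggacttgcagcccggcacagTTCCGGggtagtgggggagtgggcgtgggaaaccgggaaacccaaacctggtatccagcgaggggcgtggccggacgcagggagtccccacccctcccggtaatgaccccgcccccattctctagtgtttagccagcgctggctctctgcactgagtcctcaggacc
Lyve1: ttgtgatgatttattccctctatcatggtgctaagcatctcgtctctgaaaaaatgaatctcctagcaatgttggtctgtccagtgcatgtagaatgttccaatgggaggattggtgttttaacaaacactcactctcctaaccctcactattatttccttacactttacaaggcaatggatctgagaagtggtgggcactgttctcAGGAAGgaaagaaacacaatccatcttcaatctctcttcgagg
Stab1: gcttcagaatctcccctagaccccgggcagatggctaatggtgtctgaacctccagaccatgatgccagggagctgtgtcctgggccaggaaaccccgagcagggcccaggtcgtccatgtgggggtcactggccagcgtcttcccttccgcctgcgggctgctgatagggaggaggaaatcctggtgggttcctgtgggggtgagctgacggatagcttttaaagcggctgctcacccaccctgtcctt
Emcn: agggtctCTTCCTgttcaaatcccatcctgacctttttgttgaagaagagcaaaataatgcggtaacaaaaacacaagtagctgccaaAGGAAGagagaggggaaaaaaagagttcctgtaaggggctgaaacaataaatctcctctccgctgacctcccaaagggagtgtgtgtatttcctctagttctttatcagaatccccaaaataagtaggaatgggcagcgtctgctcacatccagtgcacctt

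One of these letter strings was present in 6 of the 7 promoters, Stab1 being the exception, against 38.4% of 33469 rat promoters of the same length. The Stab1 window holds GGAA between other letters on both strands, so it lacks these strings and not the core. CCGGAA was found in Kdr alone of the 7 (12.6% of all promoters), and AGGAAG in Emcn, Stab2, Tie1, Plvap and Lyve1 (29.5%). The E-box CANNTG was found in Stab1 and Tie1 (65.5%), the KLF-type string CCNCNCCC in Kdr, Tie1 and Plvap (42.8%) with 7 overlapping matches in Kdr, and the GATA-type string AGATAA in none of the 7 (10.3%). All strings were searched on both strands. A match describes letters and not a bound site, and the Stab2 window lies wholly within the annotated span of its gene, since it was taken from a shorter transcript. The Kdr, Emcn, Stab1 and Tie1 windows reach partly into the annotated spans of their genes.

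Calls of endothelial genes were few and in both directions at 1 h, and in 1 direction by the end of the day. At 1 h, 3 of the 60 pairs of gene and treatment were called higher and 6 lower. By treatment 0.136% to 9.77% of all probe sets were higher then, and 19.5% to 32.9% lower in the groups given topotecan. In oxaliplatin/NaCl 0.654% were lower, and 1 of the 10 members. Outside that group the 1 h counts by themselves thus do not set the members apart. At 6 h, 19 were higher (3.78% to 17% of all probe sets by treatment) and 3 lower (25.6% to 27.6% in the treatments concerned). At 24 h, 48 were higher (16.1% to 25.9%) and 0 lower (17.3% to 35.2%). All 60 changes at 24 h were above 0, so that none reached an unadjusted limma p under 0.05 on the lower side. Kdr was lower at 1 h in 5 treatments and higher at 24 h in 6, Stab2 was lower at 6 h in 3, and Lyve1 was higher at 6 h in 5 and at 24 h in 6.

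**Figure D1:**
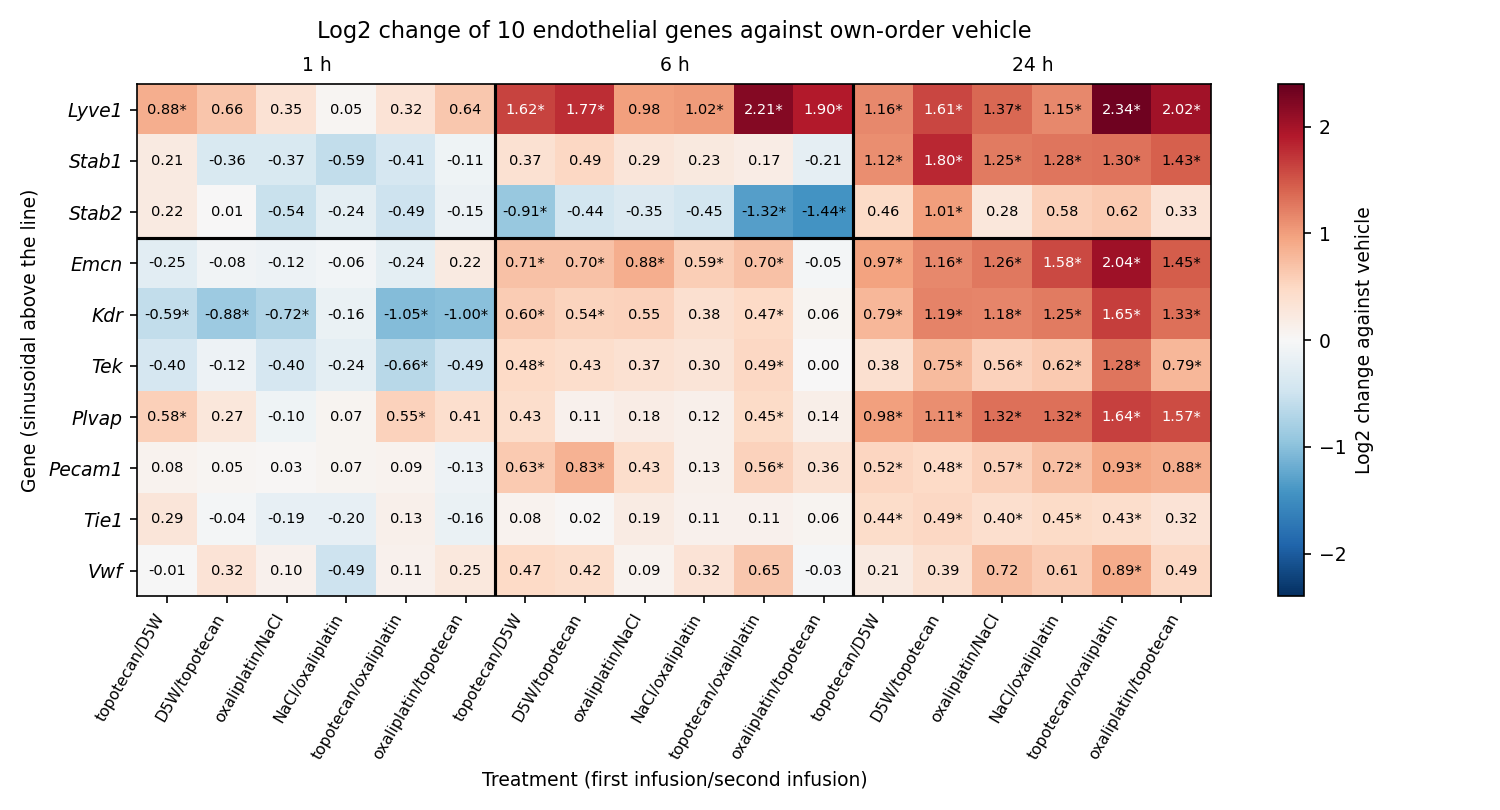
Log2 change of the 10 endothelial genes (rows, the 3 sinusoidal genes above the line) against the vehicle of the same infusion scheme, in the 6 treatments at each of 3 times (columns); the colour gives the change and the printed figure its value. The row of Kdr turns from -1.05 to 1.65 in topotecan/oxaliplatin between 1 and 24 h, the row of Stab2 is below 0 throughout 6 h, and every cell at 24 h is above 0.

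At 1 h the change that recurred was a fall of Kdr, which was called lower in 5 of the 6 treatments. In the NaCl/D5W vehicle rats its log2 signal was 7.55, 7.87, 8.04 and 8.11, in topotecan/D5W rats 7.24, 7.29, 7.30 and 7.39, and in topotecan/oxaliplatin rats 6.68, 6.79, 6.89 and 6.99. In the D5W/NaCl vehicle rats it was 7.65, 7.73, 7.78 and 7.90, in D5W/topotecan rats 6.66, 6.73, 6.88 and 7.30, in oxaliplatin/NaCl rats 6.86, 7.03, 7.09 and 7.22, and in oxaliplatin/topotecan rats 6.62, 6.67, 6.81 and 6.97. All rats of these 5 treated groups were below every rat of their vehicle group. With both drugs Kdr fell by 1.05 (SE 0.15, limma adjusted p = 1.38e-07) in topotecan/oxaliplatin and fell by 1.00 (SE 0.15, adjusted p = 1.11e-06) in oxaliplatin/topotecan. With topotecan alone the change was -0.59 and -0.88, and with oxaliplatin/NaCl -0.72 (SE 0.15, adjusted p = 0.00437). NaCl/oxaliplatin rats, at 7.59, 7.62, 7.65 and 8.06, overlapped their vehicle rats and differed from them by -0.16 (SE 0.15, adjusted p = 0.647). The oxaliplatin/NaCl call was lost when any of 6 rats was left out, to -0.65 (adjusted p = 0.0259) without oxaliplatin/NaCl animal 37.

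These calls stand against a wide early response. Of all probe sets, 26% were lower in topotecan/D5W at 1 h, 19.5% in D5W/topotecan, 32.9% in topotecan/oxaliplatin and 27.6% in oxaliplatin/topotecan, so in those groups 1 or 2 lower members of 10 is no more than the share over the array. In oxaliplatin/NaCl only 0.654% of probe sets were lower, and Kdr was one of them. In NaCl/oxaliplatin no member passed limma's threshold in either direction and 2 of 10 had an unadjusted p under 0.05.

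Other members were mostly near vehicle at 1 h. Tek was lower in topotecan/oxaliplatin (-0.66, SE 0.15, limma adjusted p = 0.000349), with -0.49 in oxaliplatin/topotecan short of the threshold (adjusted p = 0.0135). Plvap was higher in topotecan/D5W (0.58, SE 0.15, adjusted p = 0.00116) and in topotecan/oxaliplatin (0.55, SE 0.15, adjusted p = 0.00169). Lyve1 was higher in topotecan/D5W, where the rats read 9.14, 9.37, 9.41 and 9.52 against 8.26, 8.49, 8.50 and 8.67 in vehicle, without overlap (0.88, SE 0.23, adjusted p = 0.00196). Higher calls made up 9.18% of probe sets in topotecan/D5W, 7.67% in D5W/topotecan, 0.575% in oxaliplatin/NaCl, 0.136% in NaCl/oxaliplatin, 9.77% in topotecan/oxaliplatin and 7.21% in oxaliplatin/topotecan, against 2, 0, 0, 0, 1 and 0 of the 10 members. A repeat of quantile normalization raised the median change of all probe sets by 0.10 in topotecan/D5W, 0.16 in topotecan/oxaliplatin and 0.15 in oxaliplatin/topotecan, and the number of higher calls at 1 h from 3 to 5. The Plvap call in topotecan/oxaliplatin was lost without topotecan/oxaliplatin animal 49 (0.44, adjusted p = 0.0166).

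At 6 h the sinusoidal receptors parted from each other. Lyve1 rose in 5 of the 6 treatments while Stab2 fell in 3 and Stab1 was called in none. Lyve1 in the NaCl/D5W rats was 8.05, 8.13, 8.19 and 9.32, and rose to 9.60, 9.78, 10.24 and 10.56 in topotecan/D5W, 9.29, 9.43, 9.49 and 9.55 in NaCl/oxaliplatin and 10.35, 10.48, 10.84 and 10.86 in topotecan/oxaliplatin. In the D5W/NaCl rats it was 8.16, 8.36, 8.68 and 9.03, against 10.11, 10.27, 10.30 and 10.62 in D5W/topotecan, 9.29, 9.64 and 9.70 in oxaliplatin/NaCl and 9.96, 10.05, 10.28 and 11.53 in oxaliplatin/topotecan. One vehicle rat, NaCl/D5W animal 3, stood above its group and overlapped the lowest NaCl/oxaliplatin rat, and the other treated groups lay wholly above their vehicles.

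The Lyve1 changes at 6 h were 1.62 in topotecan/D5W (SE 0.23, 3.07-fold), 1.77 in D5W/topotecan (SE 0.33, 3.40-fold), 2.21 in topotecan/oxaliplatin (SE 0.23, 4.63-fold) and 1.90 in oxaliplatin/topotecan (SE 0.33, 3.73-fold), with limma adjusted p from 2.63e-10 to 2.98e-05. Oxaliplatin alone gave 1.02 in NaCl/oxaliplatin (SE 0.23, adjusted p = 0.00112) and 0.98 in oxaliplatin/NaCl (SE 0.35, adjusted p = 0.0424), the second short of the threshold. The estimates of the 4 topotecan groups were thus above those of both oxaliplatin groups, but of the direct tests of a combination against oxaliplatin alone, topotecan/oxaliplatin minus NaCl/oxaliplatin was called, as given further on, and oxaliplatin/topotecan minus oxaliplatin/NaCl was not (0.92, SE 0.35, limma adjusted p = 0.0551).

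Stab2 went the other way at 6 h. Its log2 signal was 8.66, 8.80, 9.28 and 9.39 in NaCl/D5W rats, 7.57, 7.96, 8.37 and 8.58 in topotecan/D5W rats and 7.52, 7.65, 7.79 and 7.88 in topotecan/oxaliplatin rats. It was 8.50, 8.89, 9.00 and 9.01 in D5W/NaCl rats and 7.01, 7.37, 7.41 and 7.86 in oxaliplatin/topotecan rats. None of these treated groups overlapped its vehicle. Stab2 fell by 0.91 in topotecan/D5W (SE 0.22, limma adjusted p = 0.00069), by 1.32 in topotecan/oxaliplatin (SE 0.22, adjusted p = 3.6e-06) and by 1.44 in oxaliplatin/topotecan (SE 0.20, adjusted p = 2.15e-07), the last to 0.369 of the vehicle level. In the other 3 treatments its change was between -0.45 and -0.35 and none passed. The Stab1 changes at 6 h ran from -0.21 to 0.49, with adjusted p from 0.0665 to 0.482.

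**Figure D2:**
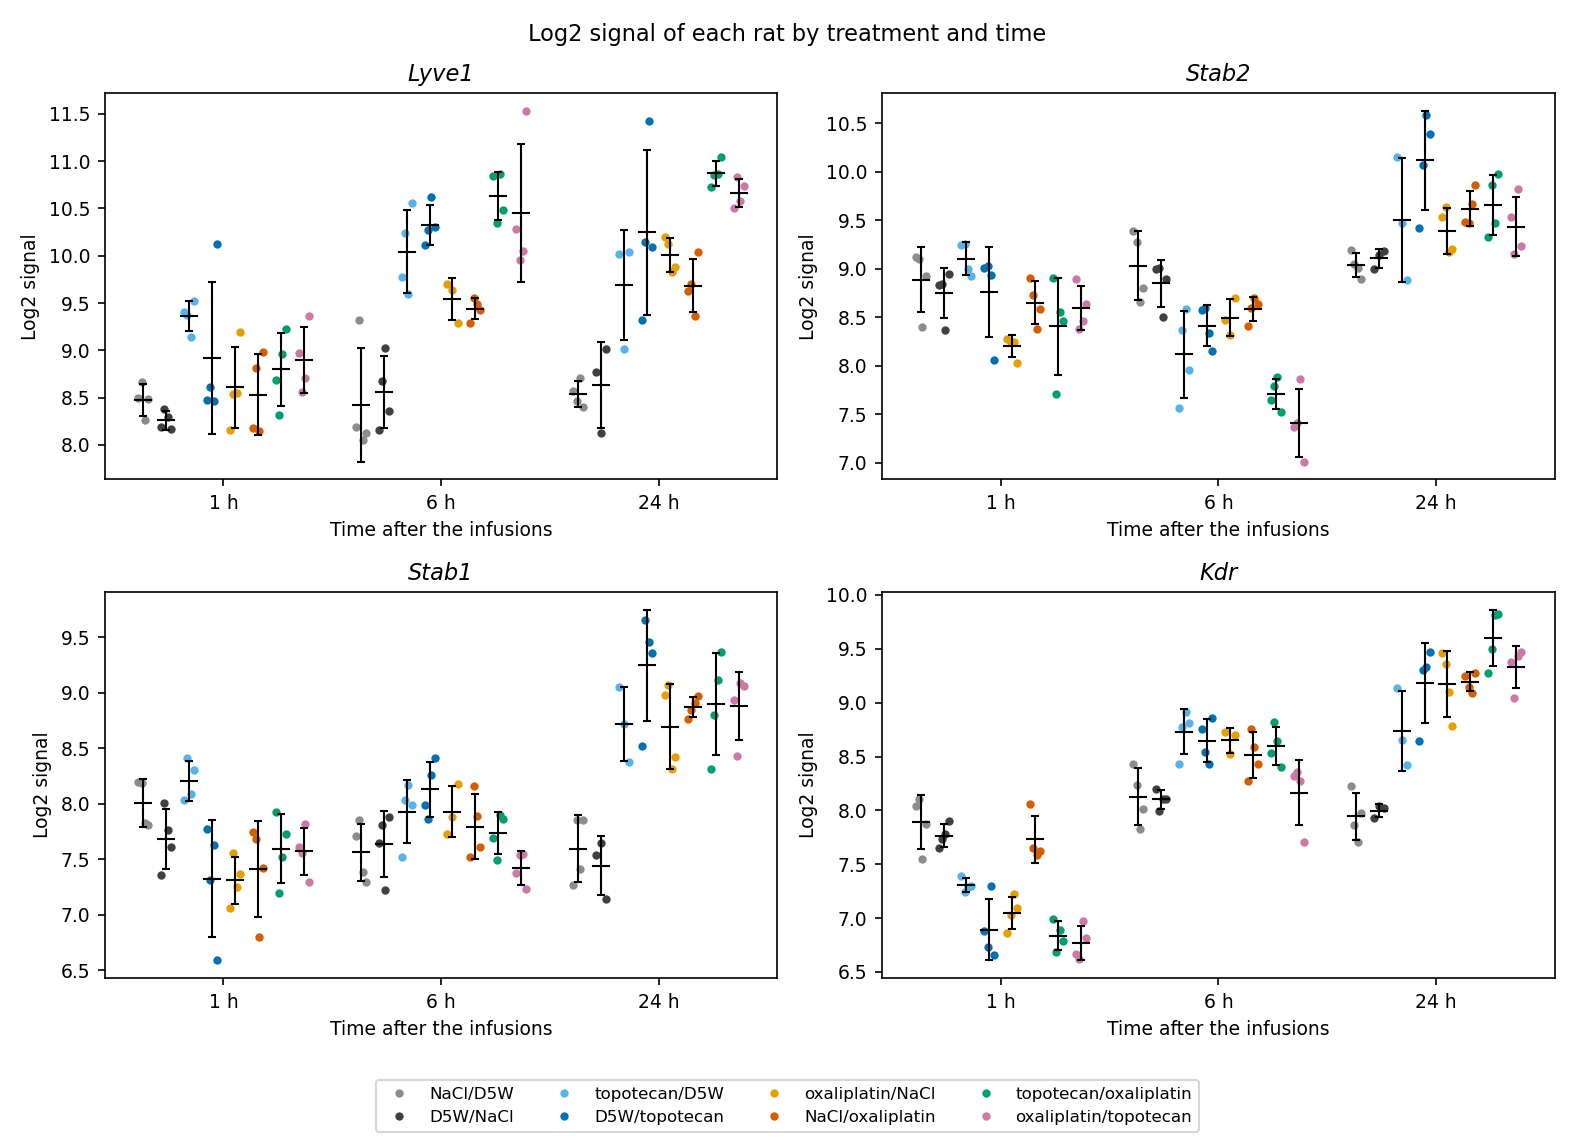
Log2 signal (vertical axes) of Lyve1, Stab2, Stab1 and Kdr in every rat (points) by time after dosing and treatment (colours), with group means (horizontal lines) and SD (bars). Kdr falls at 1 h and rises by 24 h, Stab2 is low at 6 h in both combinations, Lyve1 is high from 6 h, and Stab1 rises at 24 h, where vehicle rats sit between 7.14 and 7.85 and treated rats between 8.31 and 9.65.

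The VEGF and angiopoietin receptors had turned upward by 6 h. Kdr was higher in topotecan/D5W (0.60), D5W/topotecan (0.54) and topotecan/oxaliplatin (0.47), each with an SE of 0.15, and Tek in topotecan/D5W (0.48) and topotecan/oxaliplatin (0.49). Among the surface genes, Emcn was higher in every treatment except oxaliplatin/topotecan, by 0.59 to 0.88. Its call was lost without any 1 of 8 rats in D5W/topotecan, of 6 in NaCl/oxaliplatin and of 5 in oxaliplatin/NaCl. Pecam1 was higher in topotecan/D5W (0.63), D5W/topotecan (0.83) and topotecan/oxaliplatin (0.56), and Plvap in topotecan/oxaliplatin (0.45). In oxaliplatin/topotecan the same genes gave 0.06 for Kdr, 0.00 for Tek, -0.05 for Emcn, 0.36 for Pecam1 and 0.14 for Plvap, none of them called. Tie1 changes ran from 0.02 to 0.19 and Vwf changes from -0.03 to 0.65, and neither gene was called in any treatment.

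In all, 5 members were higher in topotecan/D5W at 6 h (15.1% of probe sets were), 4 in D5W/topotecan (14.1%), 1 in oxaliplatin/NaCl (3.78%), 2 in NaCl/oxaliplatin (5.54%), 6 in topotecan/oxaliplatin (17%) and 1 in oxaliplatin/topotecan (14.2%). On the lower side Stab2 was the 1 member called in topotecan/D5W (25.6%), topotecan/oxaliplatin (27.6%) and oxaliplatin/topotecan (27.5%), all below the share over the array. Many of the higher calls were small: a minimum of a 2-fold change left 5 of the 19, each of them Lyve1. A fit on the groups of each comparison alone gave 12. Tek in D5W/topotecan was new among these (limma adjusted p = 0.00244), and Lyve1 in NaCl/oxaliplatin was no longer called (adjusted p = 0.0205). Without topotecan/oxaliplatin animal 52, the rat with muscle signal, Kdr (0.39) and Plvap (0.40) were no longer called in that group. Leaving out other rats did the same, any of 5 in all for Kdr and any of 7 for Plvap. Without vehicle animal 4 Kdr stood at 0.37 (limma adjusted p = 0.0453), and without vehicle animal 9 Plvap stood at 0.34 (adjusted p = 0.0574). Without vehicle animal 3, Vwf in topotecan/oxaliplatin reached 0.96 (adjusted p = 0.000286) and in topotecan/D5W 0.78 (adjusted p = 0.00285).

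By 24 h the endothelial genes were higher in every treatment. The number called was 7 in topotecan/D5W (16.1% of all probe sets were higher), 9 in D5W/topotecan (18.1%), 8 in oxaliplatin/NaCl (19.6%), 8 in NaCl/oxaliplatin (24.9%), 9 in topotecan/oxaliplatin (25.9%) and 7 in oxaliplatin/topotecan (21.8%). The median change of the 10 genes was 0.66, 1.06, 0.95, 0.93, 1.29 and 1.11 in that order, where the median of all probe sets lay between -0.11 and 0.03. Lower calls took 17.3%, 18.3%, 26.4%, 30.2%, 35.2% and 33.3% of all probe sets in the same order and none of the members.

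Of the sinusoidal genes, Lyve1 and Stab1 were higher in all 6 treatments at 24 h. Lyve1 was 8.40, 8.46, 8.57 and 8.71 in NaCl/D5W rats, 9.02, 10.02 and 10.04 in topotecan/D5W rats, 9.36, 9.63, 9.70 and 10.04 in NaCl/oxaliplatin rats and 10.73, 10.85, 10.86 and 11.04 in topotecan/oxaliplatin rats. It was 8.13, 8.77 and 9.01 in D5W/NaCl rats, 9.32, 10.09, 10.15 and 11.43 in D5W/topotecan rats, 9.83, 9.88, 10.12 and 10.20 in oxaliplatin/NaCl rats and 10.51, 10.58, 10.74 and 10.83 in oxaliplatin/topotecan rats. No treated group overlapped its vehicle. The change was 2.34 in topotecan/oxaliplatin (SE 0.23, 5.05-fold, limma adjusted p = 2.56e-11) and 2.02 in oxaliplatin/topotecan (SE 0.35, 4.07-fold), and between 1.15 and 1.61 with a single drug.

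Stab1 in the NaCl/D5W rats at 24 h was 7.27, 7.41, 7.85 and 7.85, against 8.38, 8.72 and 9.05 in topotecan/D5W, 8.76, 8.84, 8.91 and 8.97 in NaCl/oxaliplatin and 8.31, 8.80, 9.11 and 9.37 in topotecan/oxaliplatin. In the D5W/NaCl rats it was 7.14, 7.54 and 7.65, against 8.52, 9.36, 9.46 and 9.65 in D5W/topotecan, 8.31, 8.42, 8.98 and 9.07 in oxaliplatin/NaCl and 8.43, 8.93, 9.06 and 9.09 in oxaliplatin/topotecan. Again no treated rat lay within its vehicle group. The rise was 1.80 in D5W/topotecan (SE 0.24, 3.49-fold, limma adjusted p = 7.4e-08) and between 1.12 and 1.43 in the other 5. Stab2 was called in D5W/topotecan alone, at 9.42, 10.07, 10.39 and 10.58 against 9.00, 9.14 and 9.18 in vehicle (1.01, SE 0.22, adjusted p = 0.000237). Its other changes were 0.28 to 0.62, with adjusted p from 0.0126 to 0.277.

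Of the signalling receptors, Kdr was higher in all 6 treatments at 24 h, by 0.79 in topotecan/D5W to 1.65 in topotecan/oxaliplatin (SE 0.15, 3.15-fold, limma adjusted p = 1.77e-12). The latter rats read 9.28, 9.50, 9.81 and 9.82 against 7.71, 7.86, 7.98 and 8.23 in vehicle, the reverse of the order at 1 h. Tek was higher in 5 treatments, by 0.56 to 1.28, and stood at 0.38 in topotecan/D5W (adjusted p = 0.0541). Tie1 was higher in 5 treatments by only 0.40 to 0.49, and at 0.32 in oxaliplatin/topotecan (adjusted p = 0.0359). Each of these 5 Tie1 calls hung on single rats, being lost without any 1 of 3 to 6 rats by treatment.

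Of the surface and adhesion genes, Emcn gave the smallest adjusted p of any member change. Its level was 10.49, 10.66, 10.72 and 11.06 in topotecan/oxaliplatin rats at 24 h against 8.48, 8.49, 8.80 and 8.99 in vehicle rats, with no overlap (2.04, SE 0.16, 4.12-fold, limma adjusted p = 1.13e-13), and it was higher by 0.97 to 1.58 in the other 5 treatments. Plvap was higher in all 6 by 0.98 to 1.64. Pecam1 was higher in all 6 by 0.48 to 0.93, none of them as much as 2-fold. Vwf was called in topotecan/oxaliplatin alone, where rats at 10.69, 10.84, 11.13 and 11.47 lay above vehicle rats at 9.92, 10.05, 10.11 and 10.48 (0.89, SE 0.23, adjusted p = 0.000886). Its other changes were 0.21 to 0.72 with adjusted p from 0.0114 to 0.524.

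A minimum of a 2-fold change left 29 of the 48 calls at 24 h, removing all calls of Pecam1, Tie1 and Vwf, 4 of Tek, and those of Kdr, Emcn and Plvap in topotecan/D5W. In oxaliplatin/NaCl, leaving out animals 41 and 42, the 2 rats with muscle signal, ended the calls of Lyve1 (1.22, adjusted p = 0.0202), Pecam1 (0.51, 0.0247), Tek (0.40, 0.122) and Tie1 (0.36, 0.068), and leaving out vehicle animal 18 alone ended that of Lyve1 (1.12, adjusted p = 0.0179).

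The sinusoidal genes did not move as a block against the pan-endothelial ones. For each rat the mean change of the 3 sinusoidal genes was set beside that of the 7 others, both taken from the mean of its vehicle group, as a description with no test. At 24 h the sinusoidal mean was 1.47 against a pan-endothelial mean of 0.80 in D5W/topotecan, 0.91 against 0.61 in topotecan/D5W, 1.26 against 0.98 in oxaliplatin/topotecan, 1.42 against 1.27 in topotecan/oxaliplatin, 0.97 against 0.86 in oxaliplatin/NaCl and 1.00 against 0.93 in NaCl/oxaliplatin. The difference averaged 0.27 over the 6 treatments, with an SD between rats of a group of 0.17. In D5W/topotecan it was 0.39 to 1.16 by rat, in topotecan/D5W 0.16 to 0.47 and in oxaliplatin/topotecan 0.17 to 0.41, where vehicle rats ranged from -0.14 to 0.08. In NaCl/oxaliplatin and topotecan/oxaliplatin it was -0.01 to 0.25, overlapping their NaCl/D5W vehicle rats. In oxaliplatin/NaCl it was 0.07 to 0.15, narrowly above its own D5W/NaCl vehicle rats at -0.07 to 0.06. At 6 h the mean difference was -0.03 (SD 0.14 between rats), as the rise of Lyve1 and the fall of Stab2 offset each other. At 1 h the mean difference was 0.13 (SD 0.16), from -0.12 in NaCl/oxaliplatin to 0.47 in topotecan/D5W. By rat it was 0.24 to 0.64 in topotecan/D5W at 1 h, above the NaCl/D5W vehicle rats at -0.13 to 0.06.

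**Figure D3:**
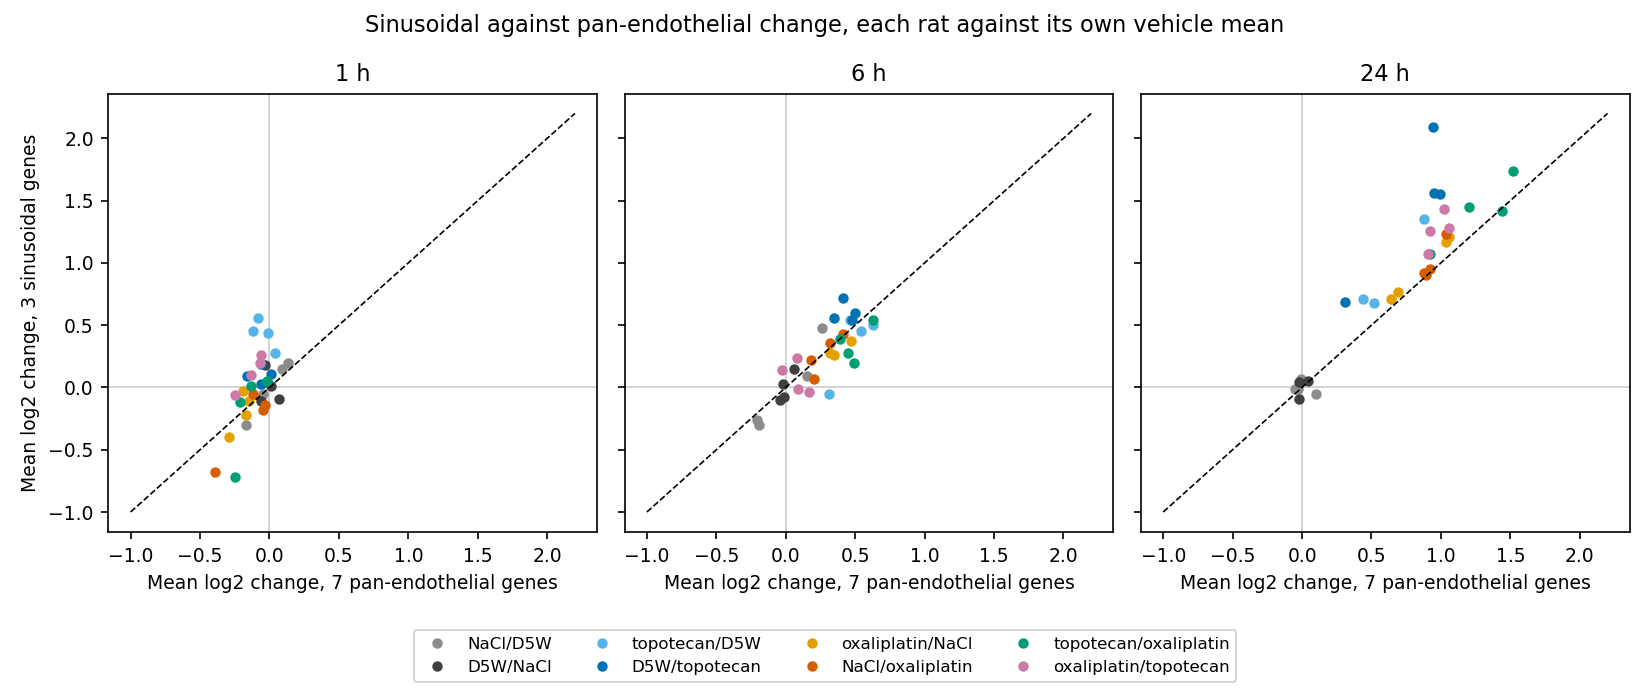
Mean log2 change of the 3 sinusoidal genes (vertical axis) against that of the 7 pan-endothelial genes (horizontal axis) in each rat, relative to its vehicle group's mean, at 1, 6 and 24 h; colours are treatments and the dashed line marks equal change. At 24 h all treated rats lie up and to the right of the vehicle rats, and the D5W/topotecan rats lie 0.39 to 1.16 above the line.

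Across the 18 treatment and time combinations, the members followed each other to different degrees. These are correlations of log2 changes that share vehicle groups and arrays, given as a description. Among the pan-endothelial genes Pearson's r ran from 0.56 for Tie1 and Vwf to 0.96 for Kdr and Tek, with 0.93 for Kdr and Emcn and 0.63 for Kdr and Vwf. Among the sinusoidal genes it was 0.70 for Stab1 and Stab2, 0.61 for Stab1 and Lyve1 and -0.02 for Stab2 and Lyve1. The genes whose 18 changes were most like a member's, among 7809 others, were Plpp3, Tns3 and Ppfibp2 for Kdr (r = 0.981 for the first), Ptprb, Armcx1 and Tspan12 for Tek (0.974), and Tpm1, Adgrf5 and Vegfc for Emcn (0.968). They were Serpinb9, Prss23 and Tmbim1 for Lyve1 (0.974), Mrc1, Abi3 and Atp8b2 for Stab1 (0.964) and Tyk2, Itgb5 and Ntpcr for Stab2 (0.932). For Plvap they were Slc27a3, Slc2a5 and Igfbp4 (0.969), for Pecam1 Aqp9, Ralgdsl1 and Lsp1 (0.954), for Tie1 Calhm2, Arhgef1 and Rgs14 (0.930), and for Vwf Itga2b, Gnaz and Gsn (0.924). Ptprb is an endothelial phosphatase that acts on Tek, Mrc1 is the mannose receptor of macrophages and sinusoidal cells, and Itga2b is a platelet and megakaryocyte integrin.

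The rise between 6 and 24 h was tested directly, as the difference between a treatment's change at 24 h and its change at 6 h. Of 60 pairs, 20 were called higher at 24 h and 0 lower, and 31 had an unadjusted limma p under 0.05. Stab2 rose by 1.94 in topotecan/oxaliplatin (SE 0.31, limma adjusted p = 6.77e-06), 1.77 in oxaliplatin/topotecan, 1.45 in D5W/topotecan and 1.37 in topotecan/D5W, the 4 groups that had received topotecan. Stab1 rose by 1.04 to 1.65 in 4 treatments, Plvap by 1.00 to 1.43 in 5, Kdr by 0.86 to 1.27 and Emcn by 0.99 to 1.50 in 3 each, and Tek by 0.79 in topotecan/oxaliplatin. Lyve1, already higher at 6 h, was called in no treatment. The share of probe sets higher at 24 than at 6 h was 10.2% in topotecan/D5W (1 member of 10), 7.07% in D5W/topotecan (3), 1.82% in oxaliplatin/NaCl (1), 8.19% in NaCl/oxaliplatin (4), 13.3% in topotecan/oxaliplatin (6) and 10.7% in oxaliplatin/topotecan (5). In vehicle rats no member was called between 1 and 6 h or 6 and 24 h (0 of 40 pairs, against 0.13% of all probe set pairs), with differences of -0.44 to 0.41 and 2 unadjusted limma p under 0.05.

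The combinations were set against their own single agents. At 24 h topotecan/oxaliplatin exceeded topotecan/D5W in 5 of the 10 genes (11.5% of all probe sets were higher): Lyve1 by 1.18 (SE 0.25, limma adjusted p = 0.00025), Emcn by 1.07 (SE 0.18), Tek by 0.90 (SE 0.16), Kdr by 0.87 (SE 0.16) and Plvap by 0.65 (SE 0.16). It exceeded NaCl/oxaliplatin in 2 of them (7.44%), Lyve1 by 1.19 (SE 0.23, adjusted p = 0.000179) and Tek by 0.67 (SE 0.15). In the reverse order no member was called: oxaliplatin/topotecan exceeded oxaliplatin/NaCl in 0 of 10 (1.02% of probe sets, 1 unadjusted p under 0.05) and D5W/topotecan in 0 of 10 (1.47%, 3 unadjusted p under 0.05). The direct test of order, given further on, called no member.

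**Figure D4:**
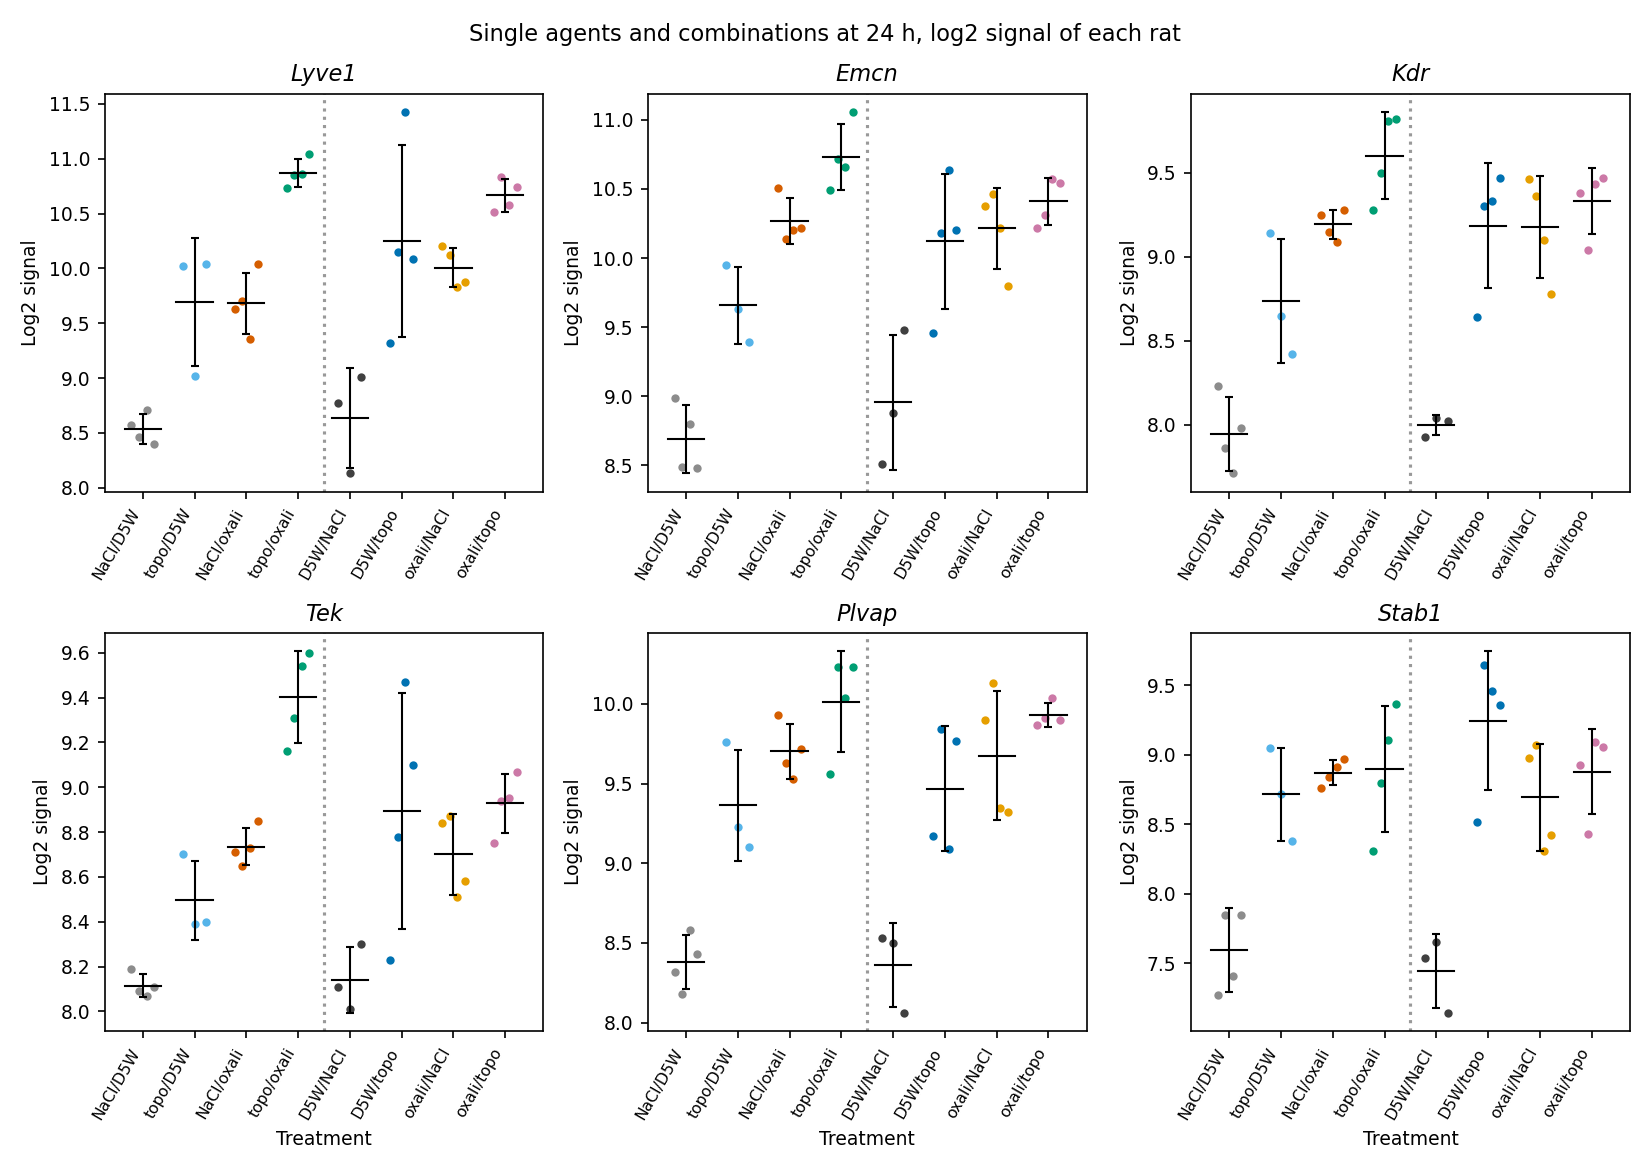
Log2 signal (vertical axes) of 6 endothelial genes at 24 h in every rat (points), with group means and SD (bars), for the vehicle, the single agents and the combination of each infusion scheme, separated by the dotted line. Lyve1 in topotecan/oxaliplatin rats, 10.73 to 11.04, lies above all rats of both its single-agent groups, whereas the Stab1 levels of combination and single-agent rats overlap.

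At the earlier times 7 further pairs were called. At 1 h, where 16.4% of all probe sets were called over the 4 comparisons, topotecan/oxaliplatin was below NaCl/oxaliplatin in Kdr (-0.89) and above it in Plvap (0.48). At 6 h (8.95%), topotecan/oxaliplatin was above NaCl/oxaliplatin in Lyve1 (1.19) and below it in Stab2 (-0.88), where 550 probe sets were higher and 1585 lower. Oxaliplatin/topotecan was below oxaliplatin/NaCl in Stab2 (-1.08) and Emcn (-0.92), where 1392 probe sets were lower and 283 higher. From the level of D5W/topotecan, Stab2 of oxaliplatin/topotecan dropped by 1.00, where 475 probe sets were lower and 38 higher. The low Stab2 of oxaliplatin/topotecan at 6 h was thus below that of either drug given in the same position.

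The change with both drugs was also compared with the sum of the 2 single-agent changes. It fell short of the sum in 6 of 60 pairs and exceeded it in none, where 5.41% of all probe sets departed in either direction. That share pools 6 comparisons that differed widely. In topotecan/oxaliplatin 0 probe sets were above the sum and 0 below at 1 h, against 926 and 786 at 24 h. In oxaliplatin/topotecan 6 were above and 16 below at 1 h, 233 and 321 at 6 h, and 678 and 790 at 24 h. The pooled share is thus below the share at 24 h, where 1 and 2 of the 10 members fell short. At 6 h the shortfall in oxaliplatin/topotecan was -1.62 for Emcn (SE 0.32, limma adjusted p = 0.001), -1.03 for Kdr and -0.90 for Pecam1. At 24 h it was -1.62 for Stab1 (SE 0.32, adjusted p = 0.000381) and -1.03 for Kdr in oxaliplatin/topotecan, and -1.09 for Stab1 in topotecan/oxaliplatin. The number rested in part on 1 rat, since 12 pairs were called without D5W/topotecan 24 h animal 89. The Stab1 levels of combination and single-agent rats overlapped at 24 h, as the values above show.

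Order of infusion was tested for topotecan, for oxaliplatin and for the combination at each time. No member was called in 9 comparisons (0 of 90 pairs, where 2.45% of probe sets were called). The differences ran from -0.68 to 0.75, 7 of the 90 unadjusted limma p were under 0.05, and the smallest adjusted p was 0.194, for Stab1 at 1 h with topotecan first or second. These p-values do not show that order made no difference. For each drug alone, the groups given it first have odd code numbers at all times and those given it second even ones. There the effect of that number and that of order cannot be told apart.

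Other genes of the same pathways were followed in lists chosen by role. Only some measured genes of each list are named below, picked with their values known, so they do not stand for their list. Among 14 of 20 endothelial receptors that were measured, 6 to 11 were higher at 24 h by treatment, and 0 or 1 lower, with list medians of 0.43 to 0.95. S1pr1, the receptor that steadies vessels in response to sphingosine phosphate, was higher in all 6 at 24 h by 1.17 to 1.95, Nrp2, a co-receptor of VEGF-C, by 0.83 to 1.14, and Il6st, the shared receptor chain of the IL-6 family, by 0.99 to 1.89. Nrp1, the co-receptor that presents VEGF to Kdr, was lower at 1 h in 5 treatments, -1.65 in topotecan/D5W, -1.23 in D5W/topotecan, -0.83 in oxaliplatin/NaCl, -2.09 in topotecan/oxaliplatin and -1.29 in oxaliplatin/topotecan, and not in NaCl/oxaliplatin (-0.18). Those were the 5 treatments in which Kdr was lower. Nrp1 was not called in any treatment at 24 h, with changes of -0.42 to 0.15.

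Of the 11 of 20 ligands and inhibitors measured, 5 to 10 were higher at 24 h and none lower, with list medians of 0.63 to 1.13. Vegfc, a growth factor for VEGF receptors, was higher in all 6 treatments at 24 h by 1.60 to 2.67, Bmp4 by 2.13 to 3.19, Jag1, a Notch ligand, by 0.79 to 2.10, and Cxcl12, which holds blood stem cells in the marrow, by 0.68 to 1.04. Angpt2, the ligand that opposes Tek signalling, was higher at 6 h in the 4 topotecan groups, by 1.44 in topotecan/D5W, 1.72 in D5W/topotecan, 1.59 in topotecan/oxaliplatin and 1.83 in oxaliplatin/topotecan, with 0.52 and 0.54 with oxaliplatin alone, and was called in none at 24 h. Angpt1, which activates Tek, was higher at 24 h in both combinations, by 0.75 and 0.62.

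Of 27 of 30 junction and surface genes, 9 to 22 were higher at 24 h and 1 lower, with list medians of 0.34 to 1.03. The lower one was Cd36, a fatty acid receptor also found on erythroid precursors, platelets and macrophages, with changes of -1.98 to -0.70. Gpihbp1, which holds lipoprotein lipase on capillaries, was higher in all 6 by 1.02 to 1.96, Vcam1 by 0.71 to 1.08 and Tjp1, a tight junction scaffold, by 1.38 to 2.23, after Tjp1 had been lower at 1 h in the 4 topotecan groups (-1.03 to -0.79). Thbd, thrombomodulin, was higher at 1 h in topotecan/D5W (1.45) and topotecan/oxaliplatin (1.53), and at 0.10 to 0.49 in the other 4.

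Of 16 of 22 transcription factors, 8 to 13 were higher at 24 h and 1 or 2 lower, with list medians of 0.47 to 0.83. Sox18, Hey2 and Klf2 were higher in all 6, by 0.58 to 1.32, 0.51 to 1.02 and 0.55 to 1.40, and Tal1, which also drives erythroid cells, was lower in all 6 (-1.16 to -0.72). At 1 h Fli1, an ETS factor of endothelium and megakaryocytes, was lower in the 4 topotecan groups, by -0.92 in topotecan/D5W, -1.36 in D5W/topotecan, -1.25 in topotecan/oxaliplatin and -1.57 in oxaliplatin/topotecan, with -0.02 and -0.31 with oxaliplatin alone. Mef2c was lower in the same 4 (-1.58 to -0.92). Of 9 of 15 further sinusoidal genes, 5 to 7 were higher at 24 h and 1 lower, with list medians of 0.58 to 1.10. In that list Bmp2, higher in all 6 by 1.96 to 3.22, and Wnt2, lower in all 6 (-2.03 to -1.30), were likewise picked out after their values were seen.

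**Figure D5:**
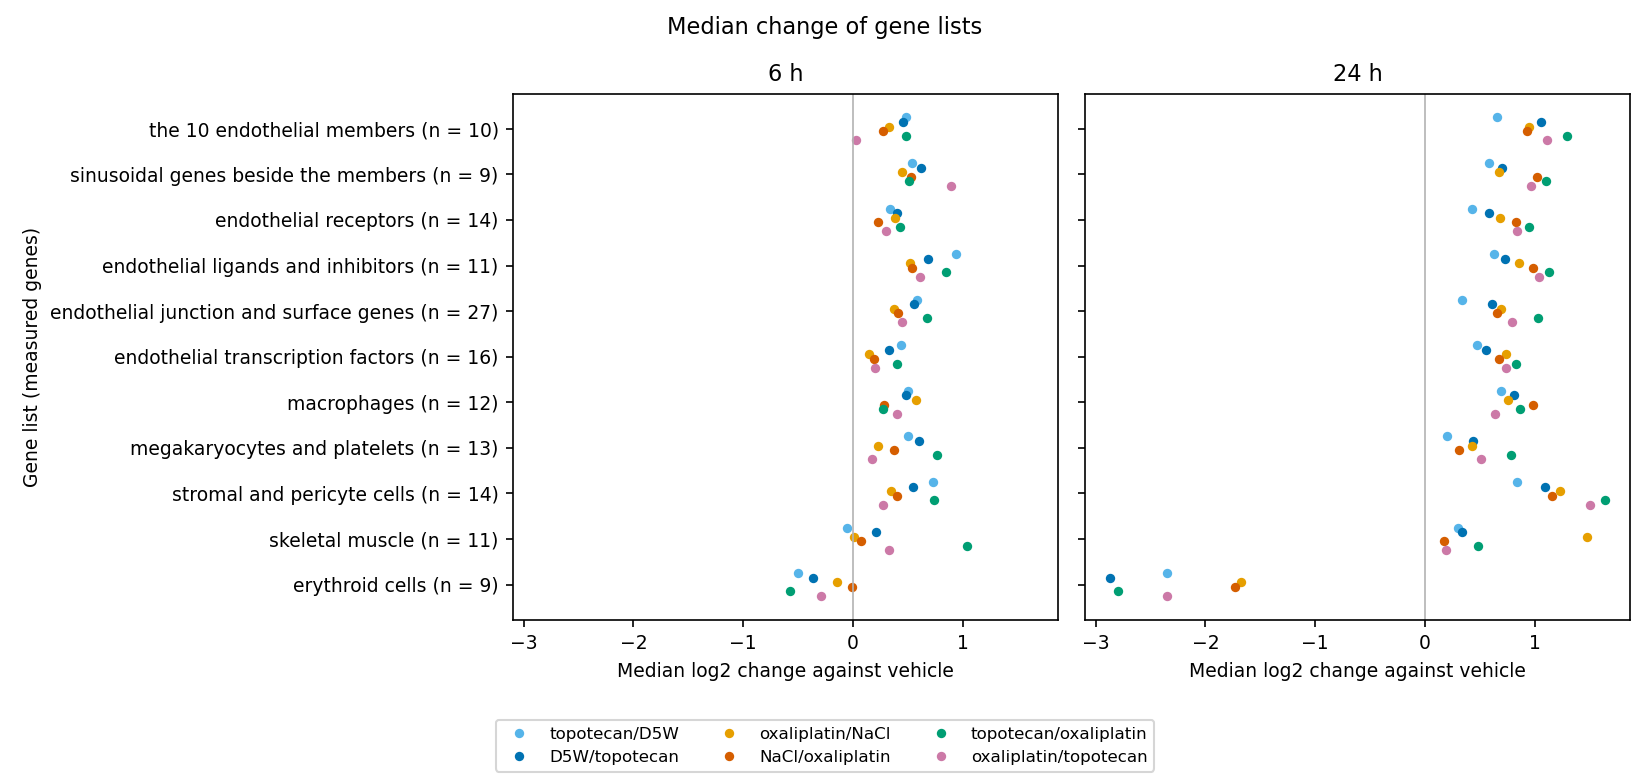
Median log2 change against vehicle (horizontal axes) of the measured genes of 11 lists (rows, with the number of genes) in each of 6 treatments (colours) at 6 and 24 h. At 24 h the endothelial lists have medians of 0.34 to 1.29, macrophage genes 0.64 to 0.98 and stromal genes 0.84 to 1.64, while erythroid genes lie between -2.87 and -1.68.

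Markers of other marrow cells moved in the same samples. Of 12 of 16 macrophage genes measured, of which Mrc1 and Vcam1 are shared with the lists above, 10 to 12 were higher at 24 h, and their mean level was 10.10 to 10.46 in vehicle rats and 10.83 to 11.51 in treated rats, beside the rises of Stab1 and Lyve1, which macrophages can also make. Cd163 was higher in all 6 by 0.57 to 1.15 and Csf1r by 0.39 to 0.74. Their part in the Stab1 and Lyve1 results was not tested. At 6 h, when Lyve1 was up and Stab1 was not called, 2 to 7 of the 12 were higher.

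Of 13 of 17 megakaryocyte and platelet genes, 13 were higher at 24 h in topotecan/oxaliplatin, the treatment in which Vwf was called, and 0 to 6 in the other 5. The mean level of these genes was 11.25 to 11.62 in vehicle rats and 11.07 to 12.52 in treated rats, and Itga2b changed by 0.80 in topotecan/oxaliplatin. At 6 h 12 of the 13 were higher in topotecan/oxaliplatin, 7 in each topotecan group without oxaliplatin and 0 in the other 3. Their part in the Vwf and Pecam1 changes was not tested.

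Of 14 of 16 stromal and pericyte genes, 11 to 13 were higher at 24 h, at mean levels of 8.51 to 8.76 in vehicle and 9.38 to 10.65 in treated rats, with Pdgfrb, the pericyte receptor, higher in all 6 by 0.81 to 1.51. Of 9 of 12 erythroid genes, 7 were lower in all 6 treatments at 24 h, from a mean level of 12.72 to 13.11 in vehicle rats to 9.99 to 11.67, with Rhag at -3.77 to -2.49. Alas2, the first enzyme of heme synthesis in red cells, was the 1 erythroid gene called higher, in oxaliplatin/NaCl (0.33), NaCl/oxaliplatin (0.29) and oxaliplatin/topotecan (0.43). The part of the fall of erythroid genes in the endothelial changes was not tested. Of 4 of 10 stem and progenitor genes 1 or 2 were higher and 0 or 1 lower, of 3 of 10 granulocyte precursor genes 0 to 2 and 0 to 3, and of 5 of 10 B cell genes 0 to 2 and 0 to 2.

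Of 11 of 12 skeletal muscle genes, 9 were higher at 24 h in oxaliplatin/NaCl, the group with 2 of the 3 muscle arrays, and 0 in the other treatments. Of the 6 lymphatic endothelial genes listed only Lyve1 and Reln were measured. Reln, which lymphatic endothelium secretes and which other cells make too, was lower in all 6 treatments at 6 h (-3.05 to -2.13) and at 24 h (-2.79 to -2.21), opposite to Lyve1.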

How the data were processed

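RNA from flushed left femur marrow was labelled by an oligo-d(T) method and hybridised to Affymetrix rat whole-genome expression arrays, 1 array per rat. The authors left out 1 array and 2 RNA samples with an integrity number below 7.5, normalized the rest by RMA (background correction, quantile normalization, median polish), and filtered probe sets with pvac. The deposited values are the resulting log2 signals of 12560 probe sets, of which 28 controls were removed. The filter keeps probe sets whose probes vary together, so a gene it dropped was not tested. Gene symbols came from the platform annotation, with 10002 probe sets carrying 1 symbol, 292 several and 2238 none. Groups came from the labels. limma 3.58.1 in R 4.3.3 was fitted over all probe sets, once for each infusion scheme and its vehicle, and over all 24 groups for order. The fits were tested on simulated data. The members and lists were chosen with earlier results of these data known, and all members and their 3 most alike genes are named. Alternatives changed the threshold, the fold minimum, the groups in a fit, the variance prior, the normalization, a filter on low values, the vehicle, the animal set, the muscle arrays, the probe set rule and each rat in turn. The number of arrays limits the precision. Promoters came from RefSeq.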

Additional observations from a re-analysis of the deposited data

Results flagged for a closer look

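Of 210 sets of 4 rats and 1 member, 8 held a rat whose log2 signal lay far from the other 3, where chance gives about 1 in 20. D5W/topotecan 1 h animal 92 did so for 3 genes, with Lyve1 at 10.12 (others 8.46 to 8.61), Vwf at 11.24 (others 10.22 to 10.27) and Stab2 at 8.06 (others 8.94 to 9.03). The others were Lyve1 in NaCl/D5W 6 h animal 3 at 9.32 (others 8.05 to 8.19), Kdr in oxaliplatin/topotecan 6 h animal 70 at 7.71 (others 8.27 to 8.36), Kdr in NaCl/oxaliplatin 1 h animal 73 at 8.06 (others 7.59 to 7.65), Emcn in NaCl/oxaliplatin 1 h animal 79 at 8.30 (others 8.69 to 8.72) and Vwf in NaCl/oxaliplatin 24 h animal 77 at 10.25 (others 10.90 to 10.93).

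The difference between the 24 h and the 6 h change was called by limma in 20 pairs of gene and treatment, all higher at 24 h. In topotecan/D5W it was 1.37 for Stab2. In D5W/topotecan it was 1.31 for Stab1, 1.45 for Stab2 and 1.00 for Plvap. In oxaliplatin/NaCl it was 1.13 for Plvap. In NaCl/oxaliplatin it was 0.86 for Kdr, 0.99 for Emcn, 1.04 for Stab1 and 1.21 for Plvap. In topotecan/oxaliplatin it was 1.19 for Kdr, 1.34 for Emcn, 1.13 for Stab1, 1.94 for Stab2, 0.79 for Tek and 1.19 for Plvap. In oxaliplatin/topotecan it was 1.27 for Kdr, 1.50 for Emcn, 1.65 for Stab1, 1.77 for Stab2 and 1.43 for Plvap.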

How the results depend on the processing

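No change of a member against vehicle turned sign among the called ones under any alternative run. An adjusted p under 0.05 gave 31 combination calls in place of 14 and 13 departures from additivity in place of 6. Adding a minimum fold of 2 left 0 of 3 higher and 1 of 6 lower calls at 1 h, 5 of 19 higher calls at 6 h, 29 of 48 at 24 h, 5 combination calls and 37 of the 79 member changes called in all. With only the groups of each comparison in its fit, 12 members were higher at 6 h and 3 pairs departed from additivity, and 63 of 180 member changes were called. Quantile normalization repeated gave 5 higher calls at 1 h, and pooled vehicles 12 departures from additivity. For these the cause was not tested, apart from the thresholds, which act by construction. The other alternatives kept each count within 1.5 times its main value. Among them the filter on low values removed Stab1 and left 42 higher calls at 24 h.

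With each rat left out in turn, higher calls were 2 to 3 at 1 h, 14 to 21 at 6 h and 44 to 49 at 24 h, lower calls 5 to 7, 3 to 3 and 0 to 0, combination calls 12 to 16, departures from additivity 5 to 12, order calls 0 to 0, calls from 6 to 24 h 17 to 22 and vehicle calls 0 to 0. The sinusoidal minus pan-endothelial difference was 0.10 to 0.16 at 1 h, -0.05 to 0.01 at 6 h and 0.24 to 0.28 at 24 h, and 73 to 82 member changes were called. Of the 79 called changes 59 held with every rat left out, 20 were lost with at least 1 left out, and 0 turned sign. No paired analysis was possible because each rat has its own animal number and the groups share none.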
